A study of Mus musculus with 18 samples.

Results

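The data describe poly(A) RNA of a cultured mouse leukaemia made with MLL-AF9, a fusion oncoprotein that holds myeloid progenitors in a self-renewing state, in cells that also express the nuclease Cas9. Among 18 libraries, 2 stood apart: replicate 3 of the cells with guide e12.3 and replicate 3 of the cells with guide e21.1. Both guides were directed against Jmjd1c, which encodes a nuclear protein of the jumonji family. These 2 libraries were chosen by their expression values, so everything that sets them against replicates 1 and 2 of their own guides is a description and carries no test. The 6 groups of 3 libraries were guides e12.3, e21.1, e12.4 and e20.1 against Jmjd1c, a guide against Renilla luciferase, which is not a mouse gene, and a mock group. All groups share the MLL-AF9 fusion, Cas9 and growth in RPMI medium with fetal bovine serum and mouse interleukin-3. The labels do not say which guide targets which domain of Jmjd1c, what the mock cells received, or whether replicates came from separate cultures, so the spread between replicates that the tests use may be technical.

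Expression is given in FPKM, fragments per kilobase of transcript, scaled to library size. Differences are given on the log2(FPKM + 1) scale, which understates the change of genes with low levels. For each guide the level in replicate 3 minus the mean of replicates 1 and 2 was taken, and the mean over both guides was then used, so that a guide is compared only with itself. A gene is said to lie above or below when both replicate 3 libraries lay outside both other libraries of their own guide on that side. Genes averaging 1 FPKM or more over both guides' 6 libraries numbered 11587, and of these 3962 (34.2%) lay above and 3303 (28.5%) lay below, and these shares are the background for every list that follows. With a mean difference of at least 1 log2 unit, which is 2-fold, 343 genes (2.96%) were higher and 233 (2.01%) were lower. Both libraries lay above all 16 other libraries of the series for 1895 genes (16.4%) and below all 16 for 1300 genes (11.2%). The median difference over all genes was 0.02. The 6 libraries of the filter include the 2, so a gene low in the mates can pass through the 2 alone.

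The 2 libraries resembled each other. Across genes, the differences found for e21.1 followed those found for e12.3 with a Pearson r of 0.77 and a Spearman rho of 0.81, over genes that are not independent of one another. The SD across genes of the log2 difference between libraries was 0.35 between the 2 libraries themselves. It was 0.56 to 0.59 in the 4 pairs of either library with a mate of its own guide, and 0.27 to 0.54 in the 14 other pairs within groups. On the second principal component of all 18 libraries, which held 21.9% of the variance, the 2 libraries lay at -41.1 and -49.9, and the other 16 lay between 0.51 and 12.999. Renilla replicate 1 and e20.1 replicate 2 stood apart on the third component, at 34.3 and 33.6.

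**Figure D1:**
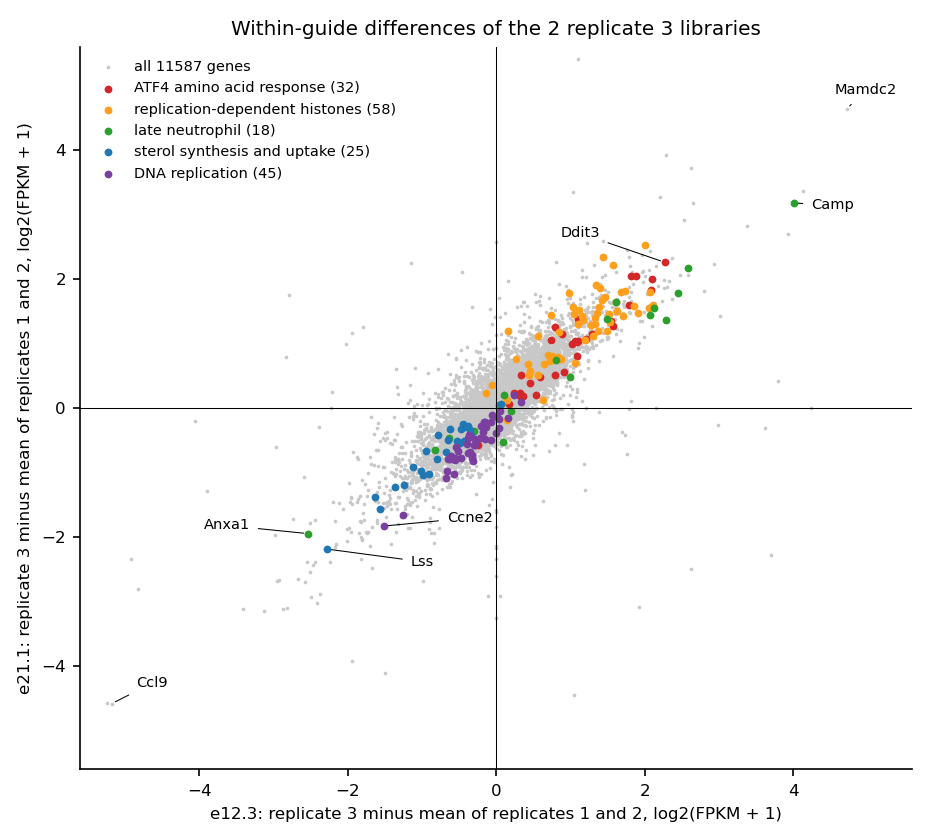
Each point is a gene. The horizontal axis is e12.3 replicate 3 minus the mean of e12.3 replicates 1 and 2 and the vertical axis is the same for e21.1, both on the log2(FPKM + 1) scale, with 5 gene lists in colour and the number of members in brackets. ATF4, histone and most late neutrophil genes lie to the upper right and sterol and DNA replication genes to the lower left; the Pearson r across all 11587 genes is 0.77.

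Depth, estimated from the steps of the FPKM values and given in megareads (M reads), was 69.6 M reads for e12.3 replicate 3 and 78.6 M reads for e21.1 replicate 3, against 22.4 to 190.7 M reads (median 33.2 M) for the other 16. Only mock replicate 1 was deeper than the 2 libraries, and the next deepest of the other 16 was e21.1 replicate 2, at 45.5 M reads. Ribosomal protein genes took 20.5% and 20.9% of FPKM in the 2 libraries, against 16.2 to 21.2% in the others, and mitochondrially encoded genes took 5.46% and 8.54%, against 2.62 to 6.40%. Genes with GC-rich transcripts were slightly higher in the 2 libraries (Spearman rho 0.18 across 11520 genes), and the part of depth and of GC content in the results was not tested. Jmjd1c itself stood at 56.2 FPKM in e12.3 replicate 3 and 67.97 FPKM in e21.1 replicate 3, against 58.8 to 73.2 FPKM in their 4 mates. Of 8 genes of leukocyte and leukaemia identity, 2 lay above (Mpo and Cebpa) and 3 below, with a median of -0.09. Hoxa9, the homeobox target that MLL fusions keep active, was at 99.8 and 119 FPKM, against 79.7 to 102 FPKM in the mates. Its partner Meis1 was at 29.5 and 35.01 FPKM, against 32.9 to 35.4 FPKM. The pan-leukocyte gene Ptprc was at 80.5 and 103 FPKM, against 87.0 to 107 FPKM. Those below were Spi1, Kit and the integrin gene Itgam, which was at 47.4 and 55.7 FPKM, against 85.6 to 99.0 FPKM.

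Cells that run short of an amino acid, or whose endoplasmic reticulum or mitochondria are stressed, phosphorylate the initiation factor eIF2α, which slows translation in general and favours that of the transcription factor ATF4. ATF4 then switches on genes that make, import and load amino acids. Of 32 genes of an ATF4 list, 31 lay above (background 34.2%), 1 lay below, and 17 were at least 2-fold higher. The list's median difference was 1.01 (0.97 for e12.3 and 1.03 for e21.1), against 0.02 over all genes, and 20 of the 32 lay above all 16 other libraries. Asns, asparagine synthetase, was at 297 FPKM in e12.3 replicate 3 and 249 FPKM in e21.1 replicate 3, against 133, 160.2, 119 and 129.8 FPKM in their mates. Ddit3, the transcription factor CHOP of the late stress response, was at 79.1 and 73.0 FPKM, against 12.1, 20.09, 10.54 and 19.6 FPKM. Trib3, a pseudokinase that ATF4 and CHOP induce, was at 104 and 74.97 FPKM, against 22.3, 24.8, 15.2 and 21.2 FPKM. For these 3 genes neither library overlapped with any other library of the series, whose highest values were 244, 42.7 and 43.1 FPKM. All 3 of those highest values came from Renilla cells, in which the list is higher than with the guides: the list's mean log2 level was 6.04 and 5.84 in the 2 libraries, 4.83 to 5.09 in their mates and at most 5.42 in any of the 16.

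Several enzymes of the ATF4 list differed by more than the gene of ATF4 itself. Cth, which makes cysteine, was at 111 and 82.0 FPKM, against 17.4 to 30.6 FPKM in the mates, and Pycr1, which makes proline, was at 42.9 and 49.6 FPKM, against 10.6 to 12.2 FPKM. Atf4 mRNA differed by only 0.26 log2 units (391 and 328 FPKM, against 286 to 342 FPKM). ATF4 is known to be regulated mainly at translation, which RNA levels do not measure. The glutathione-degrading enzyme Chac1, at 22.5 and 17.4 FPKM against 7.84 to 10.47 FPKM, had a difference of 1.05. Only Slc7a1, an importer of arginine and lysine, lay below, at 42.4 and 30.9 FPKM against 44.3 to 51.3 FPKM. Among 20 cytosolic tRNA synthetases, which charge tRNAs with amino acids and many of which ATF4 induces, 16 lay above and 1 below. Their median was 0.26, and only 1 of the 20 lay above all 16 other libraries. The list's mean log2 level was 6.86 and 6.63, within the 6.62 to 6.88 of the Renilla and mock libraries. Sars, the seryl-tRNA synthetase, differed most, at 226 and 219.6 FPKM against 94.2 to 108 FPKM, and Hars, the histidyl-tRNA synthetase, lay below at 59.2 and 46.4 FPKM against 59.0 to 65.9 FPKM.

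ATF4 pairs with C/EBP proteins on a composite element, and sterol genes answer to SREBP2 through a sterol regulatory element, so promoters of genes from these lists are shown, from 250 bases before to 50 bases after the RefSeq gene start (GRCm38.p6), 5′ to 3′ on the gene's strand. Capitals mark TGATGNAA, the C/EBP-ATF composite element, in Asns (chr6:7693160-7693459, minus strand), Chac1 (chr2:119350992-119351291, plus strand) and Trib3 (chr2:152344011-152344310, minus strand), or TCACCCCAC, a sterol regulatory element, in Hmgcs1 (chr13:119690101-119690400, plus strand), searched on both strands.
Asns: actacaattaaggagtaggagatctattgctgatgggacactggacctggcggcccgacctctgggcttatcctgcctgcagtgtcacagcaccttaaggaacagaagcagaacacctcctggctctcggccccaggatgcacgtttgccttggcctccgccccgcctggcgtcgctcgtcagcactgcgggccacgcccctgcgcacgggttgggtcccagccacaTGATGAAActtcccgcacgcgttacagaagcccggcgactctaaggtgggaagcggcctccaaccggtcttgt
Chac1: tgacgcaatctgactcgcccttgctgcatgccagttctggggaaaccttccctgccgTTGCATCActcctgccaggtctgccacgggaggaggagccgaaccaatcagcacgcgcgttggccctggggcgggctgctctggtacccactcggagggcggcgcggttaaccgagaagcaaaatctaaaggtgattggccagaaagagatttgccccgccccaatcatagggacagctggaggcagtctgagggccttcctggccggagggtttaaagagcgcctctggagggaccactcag
Trib3: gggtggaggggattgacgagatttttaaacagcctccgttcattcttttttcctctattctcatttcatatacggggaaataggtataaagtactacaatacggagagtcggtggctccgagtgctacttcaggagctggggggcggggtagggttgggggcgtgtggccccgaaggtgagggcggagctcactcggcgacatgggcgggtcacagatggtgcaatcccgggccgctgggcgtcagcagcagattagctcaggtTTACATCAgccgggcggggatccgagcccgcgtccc
Hmgcs1: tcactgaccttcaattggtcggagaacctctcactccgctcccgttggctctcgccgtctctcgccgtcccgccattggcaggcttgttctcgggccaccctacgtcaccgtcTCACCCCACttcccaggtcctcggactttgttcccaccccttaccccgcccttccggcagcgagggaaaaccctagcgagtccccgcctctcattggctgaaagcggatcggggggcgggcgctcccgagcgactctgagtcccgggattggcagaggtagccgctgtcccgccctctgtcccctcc
The match begins 23 bases before the start in Asns, 193 before it in Chac1 and at base 15 after it in Trib3. TGATGNAA was found in promoters of 9 of the 28 ATF4-list genes with a promoter in the table (32.1%) and of 5 of the 12 tRNA synthetase genes (41.7%), against 240 of all 8478 genes described here that have one (2.83%) and 3.97% of all 32851 promoter windows. The cAMP response element TGACGTCA, which shares letters with the composite element, was found in 1 of the 28 (3.57%), against 3.77% of the 8478. Letters are a description of these windows and not evidence of binding. No promoter was given for Sqle.

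Among genes of the unfolded protein response, which other sensors of endoplasmic reticulum stress switch on, 11 of 17 lay above and 2 below, with a median of 0.18. Xbp1, a transcription factor of that response, had the largest difference at 351 and 414 FPKM, against 212 to 220.1 FPKM. The chaperone Hspa5 (BiP) was at 605 and 564 FPKM, against 474 to 559.8 FPKM, within the range of the other 16. None of 9 heat shock genes lay above and 7 lay below (median -0.31), among them Hspa8, the constitutive cytosolic chaperone, at 1188 and 1026 FPKM against 1664 to 1936 FPKM. Of 12 targets of the oxidative stress factor NRF2, 0 lay above and 7 below (median -0.29). Prdx1, a peroxidase, was at 141 and 147 FPKM, against 243 to 264 FPKM. Targets of p53 showed no common side, with 4 of 15 above, 6 below and a median of -0.07.

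Low oxygen stabilises hypoxia-inducible factors, whose targets cover blood vessel growth, mitochondrial turnover and glycolysis. Of 18 hypoxia genes 15 lay above and 1 below, with a median of 0.64, and 11 lay above all 16 other libraries. Vegfa, the vascular growth factor, was at 139 and 163 FPKM, against 54.6, 57.1, 43.8 and 59.7 FPKM in the mates, and at most 69.4 FPKM in any other library. Bnip3, a mitophagy receptor, was at 88.6 and 98.6 FPKM, against 46.1 to 58.1 FPKM. P4ha1, a prolyl hydroxylase of collagen, was at 72.7 and 74.3 FPKM, against 28.4 to 37.5 FPKM. Of the glycolysis genes 10 of 15 lay above and 0 below, with a median of 0.23, and Aldoa led them at 1996 and 2019 FPKM against 1084 to 1231 FPKM. Vegfa, Xbp1 and Ero1l are also known to respond to endoplasmic reticulum stress, so these lists are not separate readings.

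Sterol genes were on the lower side. Cells switch on the mevalonate pathway through SREBP2 when cholesterol in the endoplasmic reticulum is low, and they switch it off when cholesterol is plentiful. Of 25 genes of sterol synthesis and uptake, 24 lay below (background 28.5%), 15 lay below all 16 other libraries, 7 were at least 2-fold lower, and the median difference was -0.60 (-0.67 for e12.3 and -0.53 for e21.1). Lss, lanosterol synthase, was at 16.2 and 15.3 FPKM, against 80.3, 83.9, 81.0 and 66.6 FPKM in the mates, a difference of -2.23. Hmgcs1, which makes the HMG-CoA from which mevalonate is formed, was at 37.9 and 41.2 FPKM, against 74.98, 94.2, 88.0 and 69.8 FPKM. Idi1, an isoprenoid isomerase, was at 61.9 and 60.9 FPKM, against 146, 149.6, 165 and 121 FPKM. The 2 libraries lay below every other library for these 3 genes. The difference was smaller for Sqle, squalene epoxidase (-0.48). Srebf2, the gene of SREBP2, was the single member above, at 74.6 and 73.1 FPKM against 68.5 to 71.4 FPKM.

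Fatty acid synthesis genes, many of them targets of SREBP1, followed: 8 of 11 lay below, 0 lay above and 4 were at least 2-fold lower, with a median of -0.66. Scd1 and Fads2, desaturases, were at 0.630 and 1.38 FPKM and at 21.3 and 27.97 FPKM, against 4.45 to 7.51 FPKM and 60.2 to 75.5 FPKM in the mates. Fasn, fatty acid synthase, was at 71.9 and 55.3 FPKM, against 116 to 153 FPKM. Of 8 genes of sterol efflux and of targets of LXR, a receptor for oxidised sterols, 3 lay above and 1 below. That list holds Apoe, at 13.1 and 11.2 FPKM against 6.53 to 7.96 FPKM, and Abcg1, at 8.63 and 12.7 FPKM against 11.2 to 13.9 FPKM. The letters TCACCCCAC occurred in the promoter of 1 of 17 sterol genes with a promoter (5.88%), against 0.661% of the 8478 genes. CCAAT, to which NF-Y binds beside SREBP, occurred in 16 of the 17 (94.1%), against 43.8%. It was not particular to sterol genes: it occurred in 81.8% of mitosis, 64.3% of ATF4-list, 63.9% of DNA replication and 50% of tRNA synthetase genes with a promoter.

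**Figure D2:**
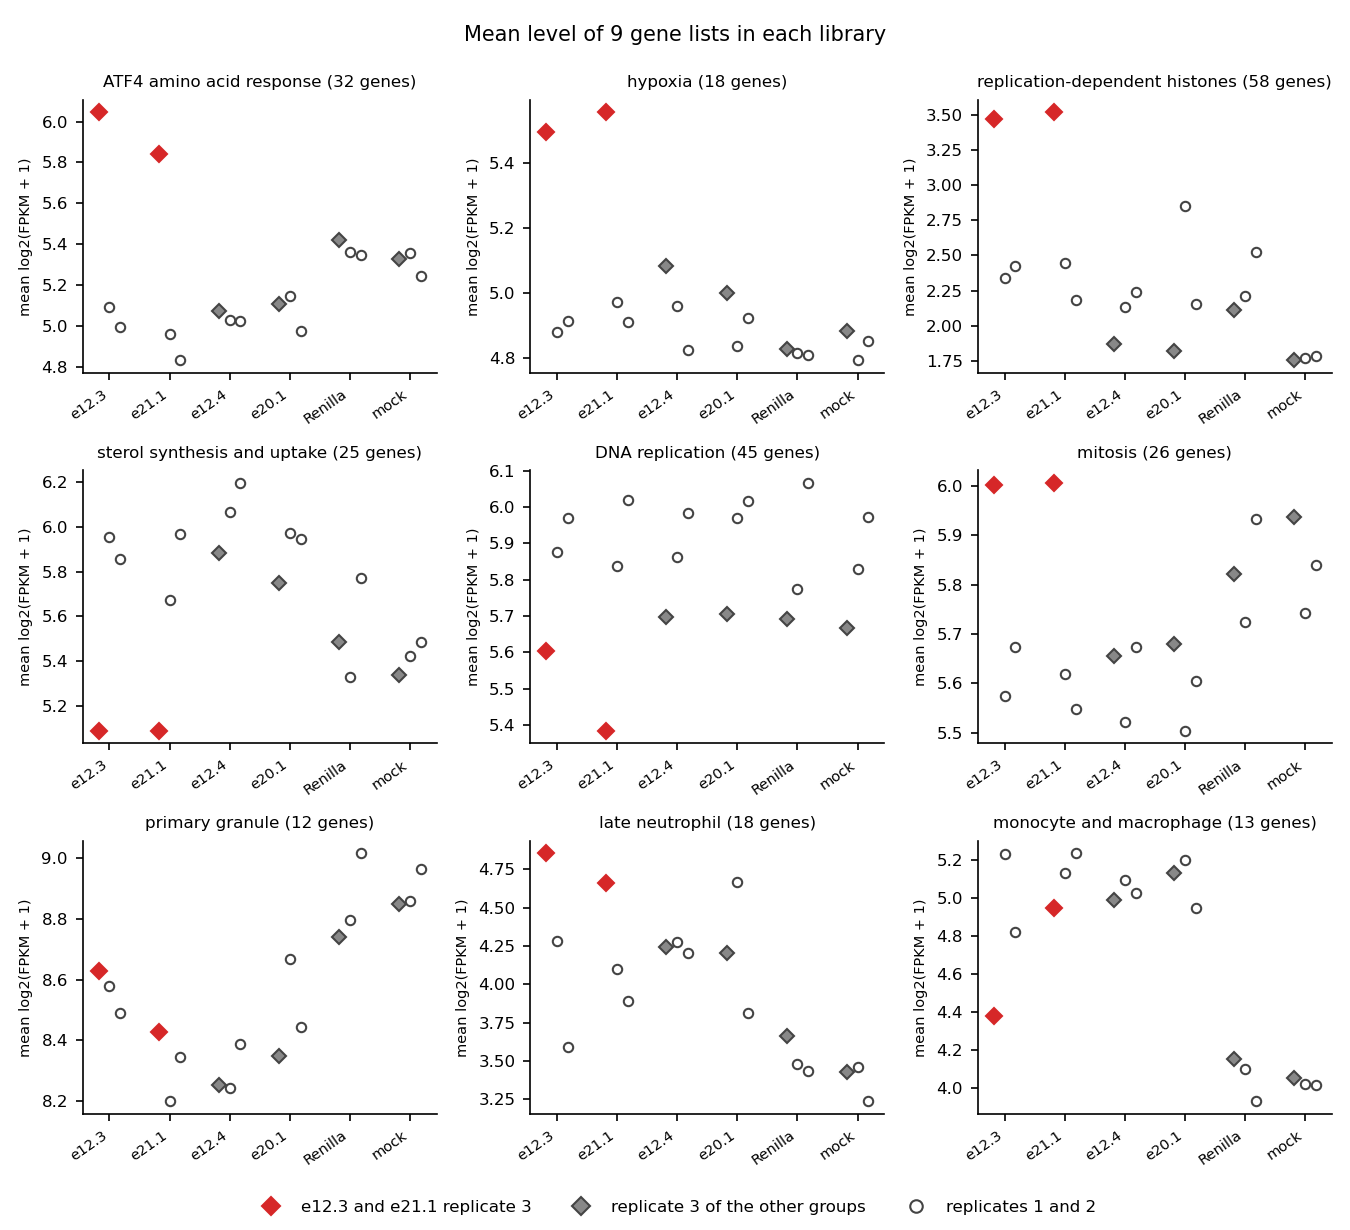
Mean log2(FPKM + 1) of 9 gene lists in each of the 18 libraries, by group on the horizontal axis, with replicate 3 as diamonds left of replicates 2 and 1 as circles and the 2 libraries in red. ATF4, hypoxia and histone levels of the 2 libraries exceed all 16 others, sterol and DNA replication levels lie below all 16, and the DNA replication level is lowest in replicate 3 in all 6 groups.

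Replication genes are switched on by E2F factors late in G1. Of 45 genes of DNA replication 37 lay below and 2 above, 18 lay below all 16 other libraries, and the median was -0.41 (-0.30 for e12.3 and -0.49 for e21.1). Pcna, the sliding clamp of the replicative polymerases, was at 281 and 255 FPKM, against 433, 453, 486 and 404 FPKM in the mates. Ccne2 and Ccne1, the E cyclins that drive entry into S phase, were at 19.01 and 15.7 FPKM and at 9.17 and 6.55 FPKM, against 51.8 to 64.8 FPKM and 21.5 to 24.4 FPKM. Mcm2, of the replicative helicase, was at 80.6 and 57.8 FPKM, against 92.7 to 109 FPKM, and Rrm2, a subunit of ribonucleotide reductase, was at 65.0 and 53.1 FPKM, against 93.6 to 110.0 FPKM. Cdt1, a licensing factor, was 1 of the 2 above, at 52.2 and 44.4 FPKM against 38.8 to 43.6 FPKM. E2F letters (TTTGGCGC or TTTCCCGC) were present in promoters of 10 of 36 replication genes (27.8%), against 3.72% of the 8478, and in 0 of 22 promoters of mitosis genes.

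Mitosis genes were on the higher side. Of 26, 18 lay above, 2 below, and 12 lay above all 16 other libraries, with a median of 0.27. Ube2c, which tags mitotic cyclins for degradation, was at 179.9 and 179 FPKM, against 58.0, 61.8, 55.1 and 56.4 FPKM, and Plk1, a mitotic kinase, was at 42.5 and 41.6 FPKM, against 21.4 to 24.3 FPKM. Mki67, the proliferation marker, lay below at 70.9 and 73.6 FPKM, against 78.9 to 92.9 FPKM. Among 5 CDK inhibitor genes measured, Cdkn2c lay below (2.03 and 2.58 FPKM, against 5.90 to 6.22 FPKM), Cdkn2d lay above (39.4 and 49.8 FPKM, against 30.2 to 33.7 FPKM), and Cdkn1a, which encodes p21, did not lie outside its mates in either direction in both guides. In bulk RNA, fewer cells in a phase and less RNA per cell cannot be told apart.

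Replication-dependent histone genes had the highest median of the 36 lists. Their mRNAs normally end in a stem loop without a poly(A) tail, and these libraries were made from poly(A) RNA, so the values describe the minority of polyadenylated or carried-over transcripts. Of 58 measured, 50 lay above, 0 below and 37 were at least 2-fold higher, with a median of 1.29, and 46 lay above all 16 others. Some members passed the filter only through the 2 libraries, which raises these counts. Hist1h1d, for example, was at 2.09 and 1.77 FPKM, against 0.543 to 0.773 FPKM in the mates. By the same filter over e12.4, e20.1, Renilla and mock, 49 members were measured. Hist1h2ah was at 27.4 and 24.2 FPKM, against 7.90, 4.62, 3.42 and 3.36 FPKM. Hist1h2ap, the most abundant, differed by 0.14 (1691 and 1552 FPKM, against 1326 to 1576 FPKM). Many of these genes have near-identical copies among which reads can be split, so single values are uncertain. Slbp, whose protein binds the stem loop, lay below at 88.5 and 81.2 FPKM, against 123.2 to 131 FPKM. Of 85 cytosolic ribosomal protein genes 69 lay above and 4 below, with a median of 0.37.

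Of 17 immediate early and RAS-MAPK feedback genes 16 lay above and 0 below (median 0.63). Fos was at 11.2 and 34.8 FPKM, against 6.998 and 6.92 FPKM in the e12.3 mates and 11.8 and 14.7 FPKM in the e21.1 mates. Interleukin-3 and STAT5 targets were mixed, with 6 of 17 above and 4 below. Pim1, a survival kinase and STAT5 target, was at 403 and 476 FPKM, against 204 to 222 FPKM and at most 224 FPKM in any other library. Myc was at 152 and 134 FPKM, against 88.0 to 104 FPKM, and 29 genes of ribosome biogenesis and MYC targets had 2 above and 12 below (median -0.15).

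Neutrophil precursors make the proteins of azurophil, or primary, granules first and those of specific and gelatinase granules later. Of 12 primary granule genes 5 lay above and 6 below, with a median of -0.19, so the list had no common side. Mpo, myeloperoxidase, was at 1025 FPKM in e12.3 replicate 3 and 664 FPKM in e21.1 replicate 3, against 377 and 384 FPKM in the e12.3 mates and 178 and 146 FPKM in the e21.1 mates. Elane, neutrophil elastase, was at 2012 and 1439.8 FPKM, against 462 to 712 FPKM. The protease genes Prtn3 and Ctsg also lay above, at 1175 and 1119 FPKM and at 682 and 562 FPKM, against 666 to 852 FPKM and 278 to 548 FPKM. Srgn, the proteoglycan that packs granule proteins, lay below at 1023 and 880.3 FPKM, against 1419 to 1675 FPKM, as did Calr, a chaperone needed for Mpo, at 718 and 656 FPKM against 1133 to 1342 FPKM. Elane exceeded all 16 other libraries, and Mpo, Prtn3 and Ctsg lay above both guides' mates and below all Renilla and mock libraries.

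Of 18 late neutrophil genes 10 lay above, 4 below and 8 were at least 2-fold higher, with a median of 0.75 (0.90 for e12.3 and 0.61 for e21.1). Without e12.3 replicate 3, when Ltf no longer reached a mean of 1 FPKM, the median was 0.48, and with genes of at least 5 FPKM it was 1.44. Camp, which encodes the cathelicidin of specific granules (chromosome 9, 109847379 to 109849617, minus strand, GRCm38), was at 91.8 and 48.8 FPKM, against 3.16, 6.93, 4.005 and 5.03 FPKM in the mates and at most 15.7 FPKM in any of the 16. S100a9, of calprotectin, was at 341 and 240.0 FPKM, against 29.3, 106, 37.8 and 72.2 FPKM in the mates and 207 FPKM in e20.1 replicate 2. Ltf, lactoferrin, was at 5.71 and 2.46 FPKM, against 0.0583 to 0.792 FPKM. The growth factor receptor gene Csf3r was at 33.6 and 30.6 FPKM, against 10.4 to 12.2 FPKM, and Padi4, which citrullinates histones, was at 22.2 and 25.6 FPKM, against 5.68 to 7.71 FPKM. Anxa1, abundant in mature neutrophils, lay below at 5.04 and 8.79 FPKM, against 21.7 to 53.1 FPKM. Ly6g, the surface marker of mature mouse neutrophils, was at 2.47 and 2.48 FPKM, against 1.71 to 2.82 FPKM. Cebpa, the master factor of granulocyte commitment, was at 101 and 92.1 FPKM, against 48.3 to 59.7 FPKM.

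Of 13 monocyte genes measured 1 lay above and 6 below. Their medians were -0.88 in e12.3 and -0.06 in e21.1, and the difference between the guides was not tested. Fcgr1, a high-affinity receptor for IgG, was at 2.36 and 1.08 FPKM, against 6.26 to 10.0 FPKM. Irf8, a factor of monocyte and dendritic fate, was the member above, at 42.5 and 97.4 FPKM against 28.1 and 40.3 FPKM in the e12.3 mates and 45.1 and 39.9 FPKM in the e21.1 mates. Among 19 stem and progenitor genes and MLL-fusion targets measured 4 lay above and 8 below. Cd34 was at 80.1 and 134 FPKM, against 214 to 265 FPKM. It averaged 135 FPKM in Renilla and 132 FPKM in mock, and only e12.3 replicate 3 lay below those libraries. Kit was at 24.7 and 17.7 FPKM, against 30.9 to 40.3 FPKM, and Myb at 144 and 109.6 FPKM, against 181 to 223 FPKM.

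Genes of other blood lineages were also present at low levels. Of 8 mast cell, basophil and eosinophil genes measured 5 lay below, 1 above, and 3 were at least 2-fold lower, and their summed FPKM was 43.8 and 37.6, against 82.1 to 94.9 in the mates. Cpa3, the mast cell carboxypeptidase, was at 0.675 and 0.572 FPKM, against 8.55, 10.8, 9.95 and 7.82 FPKM and at least 7.20 FPKM in every other library. Hdc, which makes histamine, was at 11.2 and 9.22 FPKM, against 34.8 to 45.3 FPKM. Both megakaryocyte genes measured lay below, Itga2b at 1.39 and 1.46 FPKM against 10.7 to 13.8 FPKM. All 3 dendritic genes measured lay below as well, among them Cd74 at 0.437 and 0.744 FPKM against 5.06 to 11.02 FPKM. However, 0 of the 3 lay below all 16 other libraries, and Cd74 averaged 0.945 FPKM in Renilla and 0.438 FPKM in mock. In the lymphoid list, Lck was at 9.72 and 8.79 FPKM, against 2.07 to 3.24 FPKM. How far a change in the mix of cells contributes to any of these differences was not tested.

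**Figure D3:**
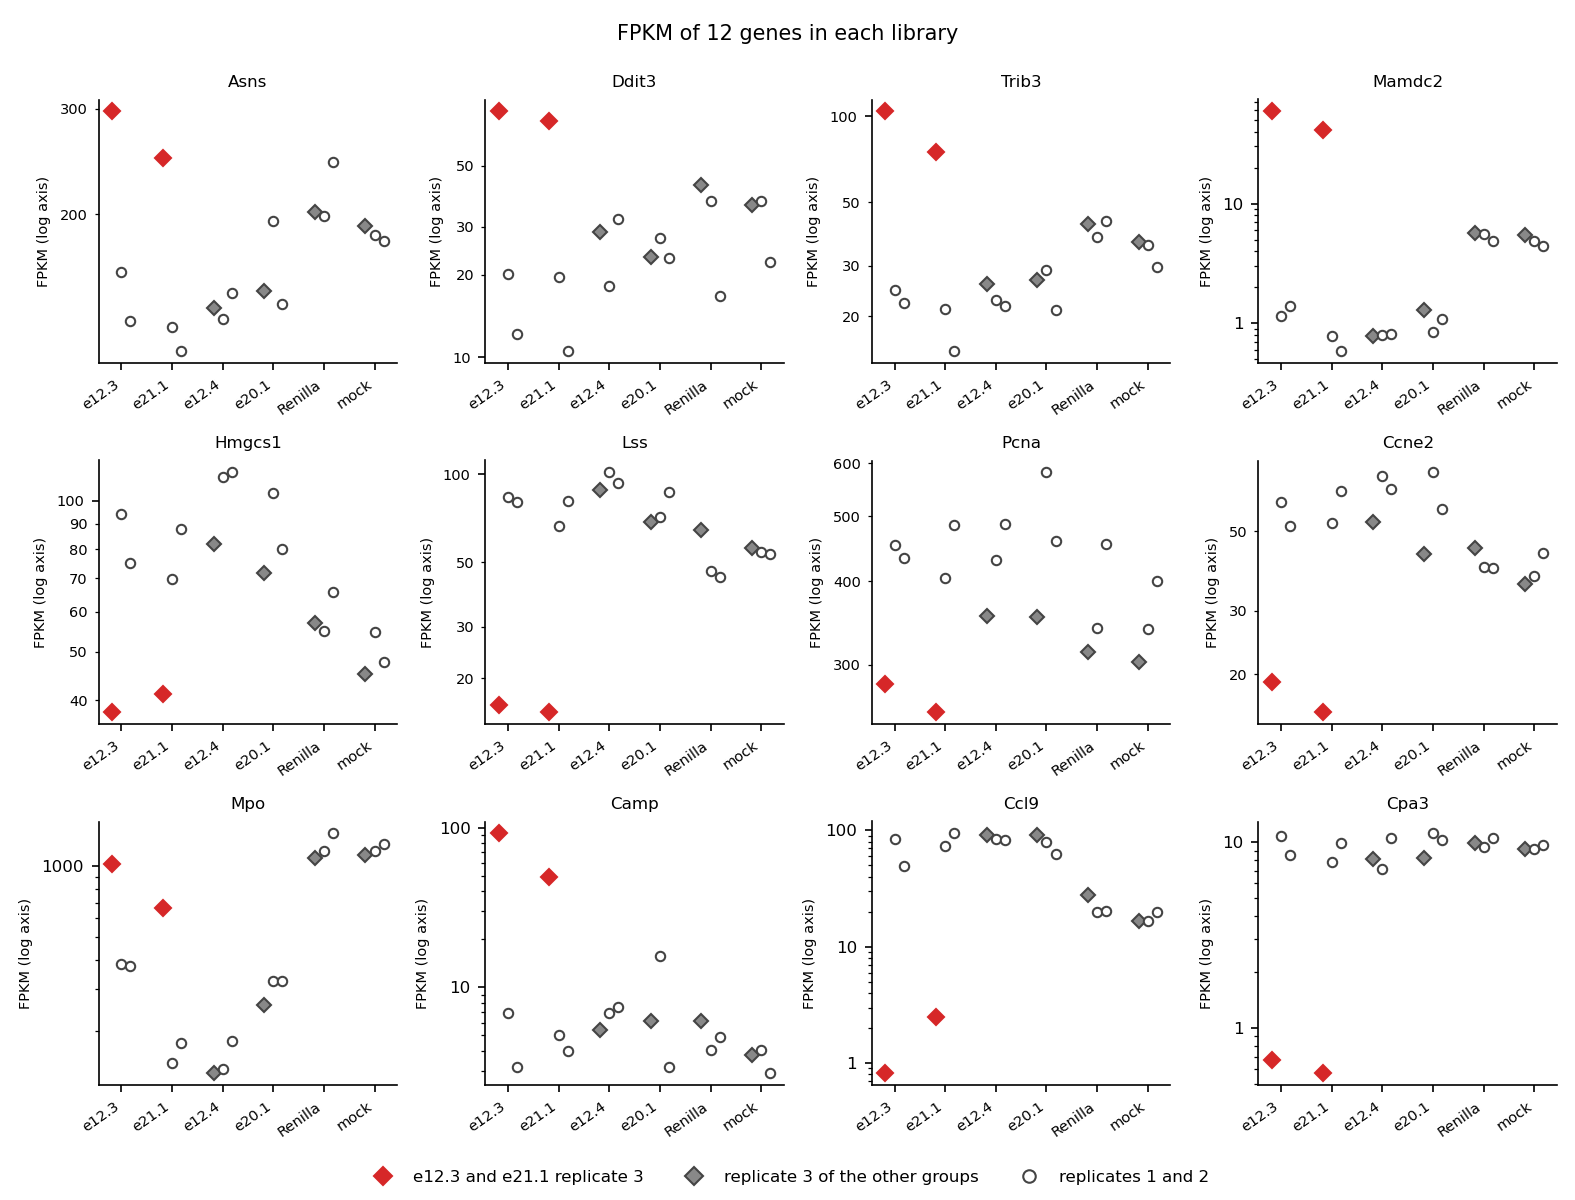
FPKM of 12 genes in each of the 18 libraries on logarithmic axes, with groups on the horizontal axis, replicate 3 as diamonds left of replicates 2 and 1 as circles, and the 2 libraries in red. For 11 of the 12 genes both libraries lie outside all 16 others; for Mpo they lie between their mates and the Renilla and mock libraries.

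The single genes with the largest differences did not come mainly from these lists. They were taken in each direction by the smaller of both guides' differences, among genes averaging at least 5 FPKM over the 6 libraries. That mean includes the 2 libraries, so genes low in the mates, such as Mamdc2, Hid1, Stfa2 and Mogat2, passed through the 2 alone. Mamdc2, a gene of a secreted matrix protein (chromosome 19, 23302609 to 23448442, minus strand, GRCm38), led those higher. It was at 58.9 and 40.96 FPKM, against 1.39, 1.16, 0.587 and 0.785 FPKM in the mates, a difference of 4.68 log2 units, and at most 5.65 FPKM in any other library. Hid1, of the secretory pathway, was at 12.7 and 17.6 FPKM, against 0.957 to 1.37 FPKM, and Gpx3, a secreted glutathione peroxidase, was at 92.8 and 117 FPKM, against 14.3 to 15.6 FPKM. Cox6a2, a muscle form of a cytochrome oxidase subunit, was at 50.8 and 39.1 FPKM, against 6.48 to 9.12 FPKM, and Lin28a, an RNA-binding protein of stem cells, was at 34.3 and 23.7 FPKM, against 3.93 to 7.24 FPKM. The others of the 15 were Camp, Stfa2, Ddit3, Myl10, S100a9, Cdr2l, Mogat2, Ndrg2, Hist1h2ah and Trib3. The gene with the smallest difference inside this limit was Trib3, at 2.003 in e21.1, and the next outside it was G0s2, at 1.98.

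Ccl9, a chemokine gene of myeloid cells (chromosome 11, 83572919 to 83578636, minus strand, GRCm38), led those lower. It was at 0.824 and 2.496 FPKM, against 49.8, 85.1, 94.2 and 73.0 FPKM in the mates, a difference of -4.88, and at least 16.6 FPKM in every other library. Lipn, a lipase gene, was at 0.0955 and 0.0663 FPKM, against 5.62 to 12.9 FPKM, and Akr1c12, an aldo-keto reductase gene with close paralogs, was at 3.77 and 3.53 FPKM, against 30.9 to 39.8 FPKM. S100a4 was at 6.40 and 12.2 FPKM, against 39.05 to 87.9 FPKM, and averaged 10.01 FPKM in Renilla and 7.48 FPKM in mock. Angpt1, a vascular ligand made by blood progenitors, was at 0.258 and 0.248 FPKM, against 6.93 to 8.60 FPKM. Cpa3, Cd74, F2rl2, Mgl2, Itga2b, Mt2, Clec4n, Cd200r4, P2ry14 and Ctla2a made up the 15. Cd74, Clec4n, Cd200r4 and P2ry14 were also low without a Jmjd1c guide: P2ry14 averaged 0.418 FPKM in Renilla and 0.393 FPKM in mock. The least of the 15 was Ctla2a, at -2.24 in e12.3, and the next outside was Lss, at -2.19. Of the 343 genes at least 2-fold higher 21.3% belonged to a list, as did 11.6% of the 233 at least 2-fold lower and 5.6% of all genes described.

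A test that did not use the 2 libraries asked whether replicate 3 differs from replicates 1 and 2 in the other groups. In e12.4, e20.1, Renilla and mock, with the group as a block, limma on log2(FPKM + 1) called 0 of 11518 genes (0%) at a Benjamini-Hochberg adjusted p under 0.05, with a smallest adjusted p of 0.346. An unadjusted p under 0.05 was found for 1355 genes, against 575.9 that the threshold alone would give. Across 11367 genes its estimates had a Pearson r of -0.04 and a Spearman rho of 0.04 with the differences of the 2 libraries. By group, rho was 0.17 for e12.4, -0.02 for e20.1, -0.07 for Renilla and 0.14 for mock.

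DNA replication genes were lower in replicate 3 of the other groups as well, by values that did not pass adjustment. Their median difference of replicate 3 from replicates 1 and 2 was -0.22 in e12.4, -0.28 in e20.1, -0.26 in Renilla and -0.24 in mock, beside -0.30 and -0.49 in the 2 libraries. Although 0 of the 45 were called, 31 (68.9%) had an unadjusted p under 0.05 and were lower, against 6.48% of all genes. Sterol genes had medians of -0.24, -0.18, -0.05 and -0.13 in the same 4 groups, with 8 of 25 lower at an unadjusted p under 0.05 and 0 called. Among these 4 groups, by the mean level of the list, replicate 3 was lowest of its group in all 4 for DNA replication. For sterol genes it was lowest in e12.4, e20.1 and mock but not in Renilla. ATF4 genes had medians near 0, which in the other groups were 0.04, 0.06, 0.04 and 0.01. Histone genes were on the opposite side, with medians of -0.33, -0.62, -0.22 and -0.04, beside 1.16 and 1.32 in the 2 libraries. Hypoxia genes had medians of 0.20, 0.17, -0.03 and 0.08, beside 0.56 and 0.71. By the mean level of the list, replicate 3 was highest of its group in all 4 of these groups for hypoxia. For ATF4 genes it was highest in e12.4 and Renilla but not in e20.1 or mock. Of 18 hypoxia genes, 4 (22.2%) had an unadjusted p under 0.05 and were higher in the other groups, against 5.29% of all genes, and 0 were called.

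**Figure D4:**
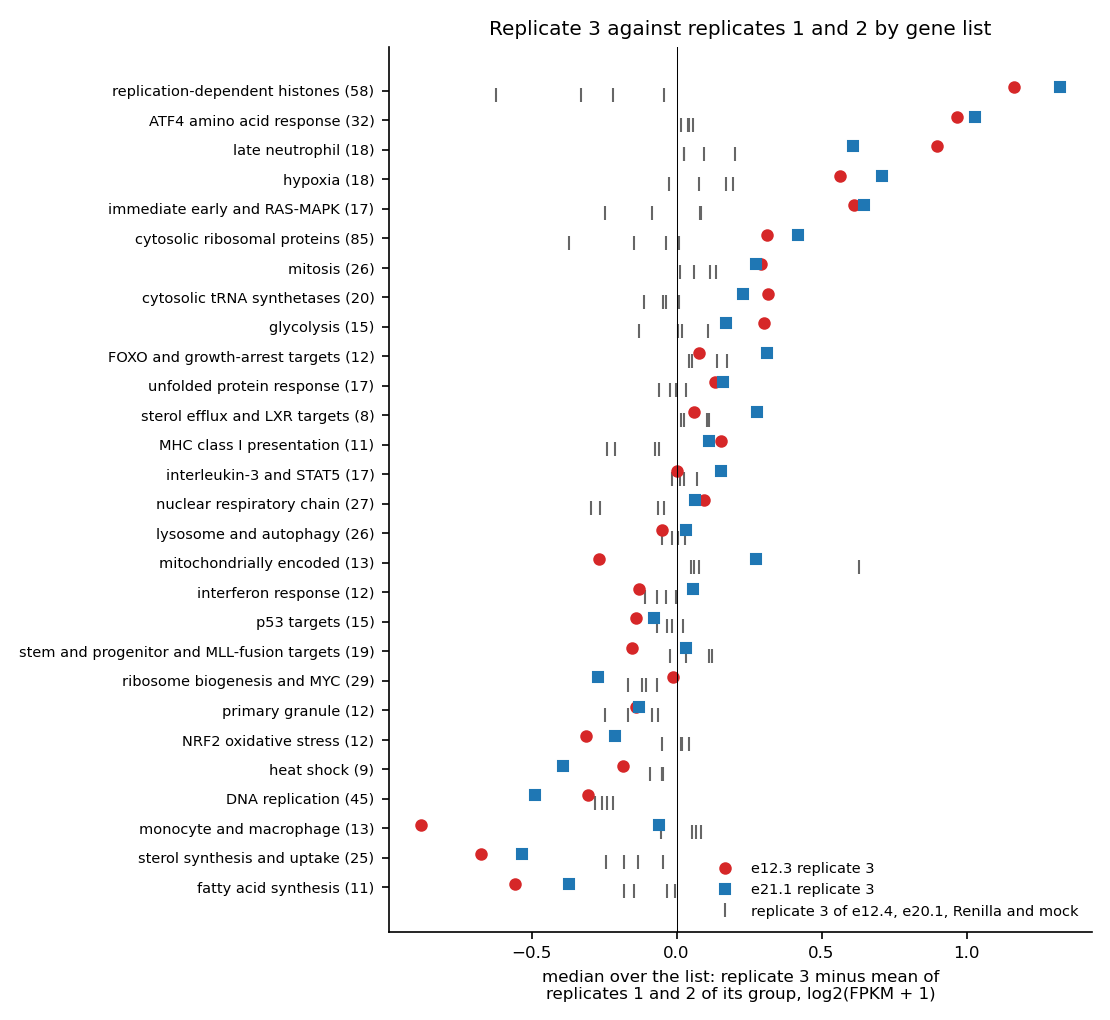
Median over each gene list of replicate 3 minus the mean of replicates 1 and 2 of its group, on the log2(FPKM + 1) scale, with the number of members measured in brackets; red circles are e12.3, blue squares e21.1 and grey ticks e12.4, e20.1, Renilla and mock. Histone, ATF4, late neutrophil and hypoxia medians of the 2 libraries lie to the right of all grey ticks, and DNA replication ticks lie between -0.22 and -0.28.

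How the genes that respond to the guides stand in the 2 libraries was described with the other guides. Guides e12.4 and e20.1 together against Renilla, in a limma fit without e12.3 and e21.1, called 1667 of 11518 genes (14.5%), of which 1060 were higher and 607 lower than with Renilla. The lower count was 356 without Renilla replicate 2, 367 without Renilla replicate 1 and 375 without e12.4 replicate 2, and with the replicate number as a block it was 964. Of 1056 of the higher genes that were also described in the 2 libraries, 43.3% lay below their mates and 25.6% above, beside 28.5% and 34.2% of all genes. Of 594 of the lower genes, 56.7% lay above and 12.8% below. In both directions more of these genes lay on the Renilla side of their mates than on the far side. The comparison with the mates shares no library with the one that called them. Its 2 libraries were chosen by their values, however, so these shares are a description and no test. The median over the 1060 genes of the log2 difference from the Renilla mean was 0.36 in the e12.3 library and 0.66 in the e21.1 library, against 0.49 and 0.60 in the e12.3 mates and 0.67 and 0.64 in the e21.1 mates. Over the 607 genes it was -0.05 and -0.24, against -0.29 and -0.36 in the e12.3 mates and -0.37 and -0.42 in the e21.1 mates. Of the 1060 genes, 76.6% and 85.3% lay above the Renilla mean in the 2 libraries, against 98.9 to 99.8% in the mates. Of the 607 genes, 56.8% and 72.7% lay below it, against 98.8 to 99.8% in the mates. These medians and shares use the same Renilla libraries as the test that chose the genes.

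Mpo, already described among the granule genes, fell with e12.4 and e20.1 to 227 ± 88.8 FPKM (SD, n = 6), against 1206 ± 152 FPKM in Renilla (SD, n = 3). The fall was 2.49 log2 units (SE 0.13, limma adjusted p = 2.34e-07). The 1025 and 664 FPKM of the 2 libraries lie between these levels. Slc28a2, a nucleoside transporter, fell to 4.40 ± 1.19 FPKM, against 13.8 ± 0.302 FPKM in Renilla (limma adjusted p = 2.32e-05), and was at 18.4 and 13.3 FPKM in the 2 libraries, against 3.30 to 8.01 FPKM in their mates. Mamdc2 fell with those guides to 0.934 ± 0.205 FPKM, against 5.36 ± 0.415 FPKM in Renilla (limma adjusted p = 5.75e-07), so the 58.9 and 40.96 FPKM of the 2 libraries exceed both. Mgl2, a lectin of macrophages, also fell, to 13.1 ± 4.51 FPKM against 37.1 ± 4.23 FPKM in Renilla (limma adjusted p = 3.39e-07), and was lower still in the 2 libraries, at 2.31 and 0.854 FPKM.

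Of the genes that rose with e12.4 and e20.1, Wfdc17, a secreted inhibitor made by activated macrophages, had 298 ± 60.0 FPKM with those guides, against 25.3 ± 1.34 FPKM in Renilla (limma adjusted p = 6.81e-08). It was at 65.7 FPKM in e12.3 replicate 3, against 204 and 315 FPKM in its mates, and at 210.03 FPKM in e21.1 replicate 3, against 344 and 328 FPKM. Ctss, a cathepsin of antigen-presenting cells, rose to 49.5 ± 8.59 FPKM, against 4.04 ± 0.808 FPKM (limma adjusted p = 6.81e-08). It was at 27.3 FPKM in e12.3 replicate 3, against 36.96 and 53.7 FPKM in its mates, and at 76.6 FPKM in e21.1 replicate 3, against 69.0 and 54.9 FPKM. Both genes stayed above every Renilla library in both libraries, although Wfdc17 in e12.3 replicate 3 was nearer to Renilla than to its mates.

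**Figure D5:**
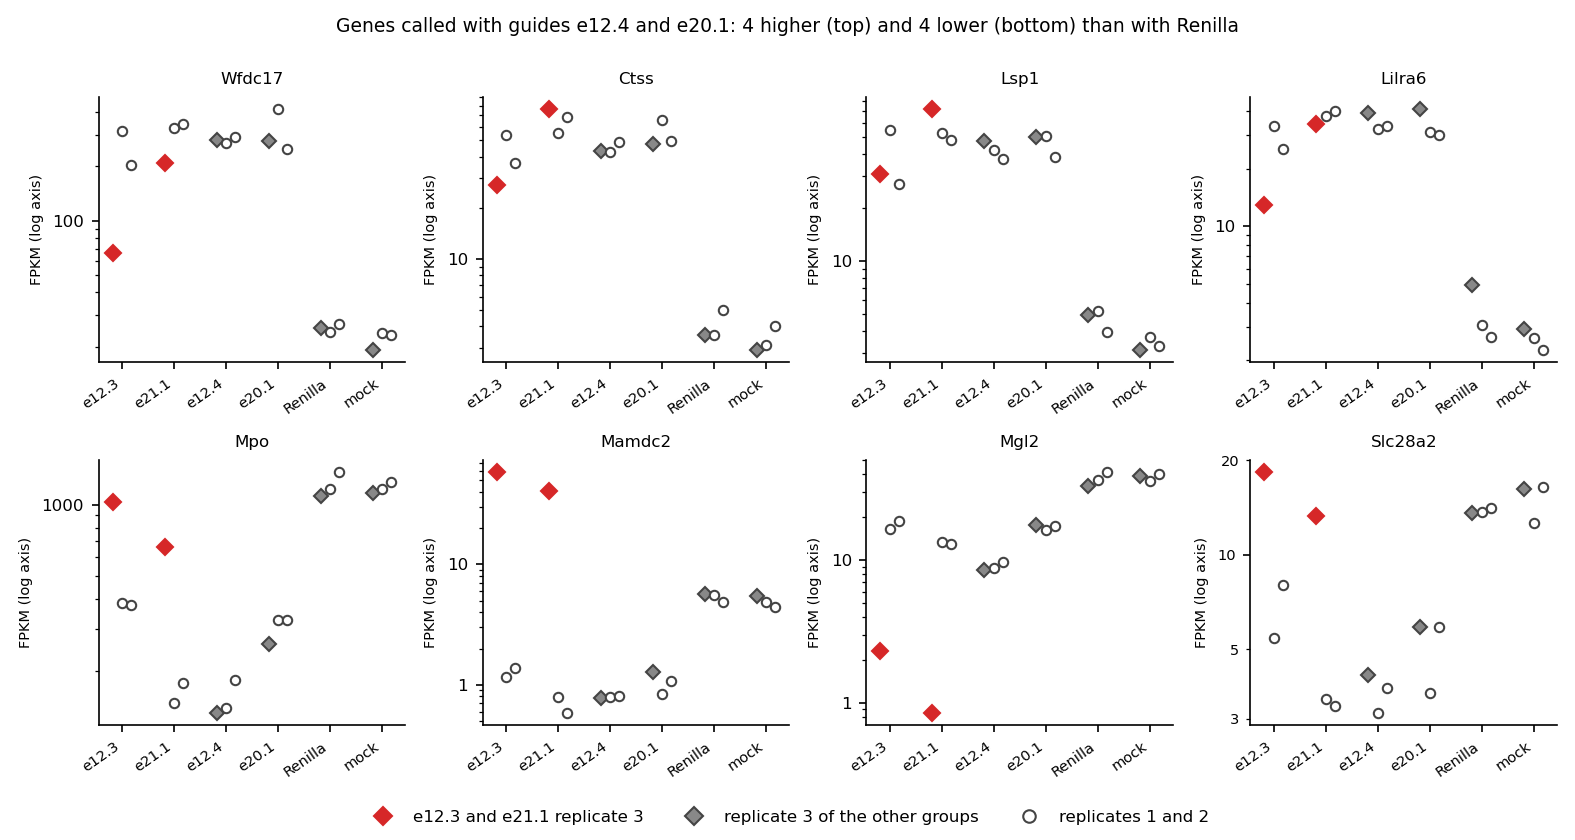
FPKM on logarithmic axes of 4 genes called higher (top) and 4 called lower (bottom) with guides e12.4 and e20.1 than with Renilla, in all 18 libraries, with replicate 3 as diamonds and the 2 libraries in red. In the 2 libraries, Mpo lies between the levels of the other guides' libraries and those of Renilla and mock. Slc28a2 lies near the Renilla and mock levels, Mamdc2 above them, and Mgl2 below all 16 others.

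The counts for each guide against Renilla were computed with and without the 2 libraries. With all 18 libraries, limma called 370 of 11550 genes (3.2%) for e12.3, 350 higher and 20 lower. Without both replicate 3 libraries it called 706 of 11529 (6.12%), 579 higher and 127 lower. For e21.1 it called 1098 of 11550 (9.51%), 815 higher and 283 lower, with them, and 1243 of 11529 (10.8%), 898 higher and 345 lower, without them. With only the guide's own replicate 3 left out, e12.3 had 376 higher and 17 lower, and e21.1 had 649 higher and 145 lower, so the counts did not all move one way. Leaving out 1 Renilla library gave as few as 8 lower for e12.3 and 140 lower for e21.1, and a replicate block gave 64 and 583.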

How the data were processed

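Poly(A) RNA of 18 libraries in 6 groups of 3 was sequenced with a directional kit, per the labels' protocols. The submitters' processing notes name bcl2fastq 2.22.0.422, Salmon 0.13.0, DESeq2 1.22.1, R 3.5.3 and the mouse build mm10, with no settings. The authors deposited FPKM values for 23899 genes, which are scaled by transcript length and library size; read counts were not used here, so no count test was run. The 15 separate tables differed from the joint table by at most 3.32e-06 FPKM.

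From these values log2(FPKM + 1) was computed, and genes averaging under 1 FPKM in the libraries of a comparison were left out. To estimate depth, the steps between FPKM values were read in 1473 single-transcript genes of at least 2000 bases; at least 99.2% of the low values were whole multiples of a step within 10%. Because depth is an estimate, no counting interval is given. The contrast of both replicate 3 libraries with the mates of their guides was chosen by these values and is described without a test, as within-guide differences. Other contrasts used limma 3.58.1 (trend, R 4.3.3) with Benjamini-Hochberg adjustment over all genes fitted and an adjusted p under 0.05 as the threshold; the fit for replicate 3 of the other groups had group as a block. Scripts ran in Python 3.11.15 with numpy 2.4.6, pandas 2.3.3, scipy 1.17.1 and matplotlib 3.10.9 and were tested on simulated data.

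The libraries and the 36 gene lists were chosen with earlier results of these data known. Named genes are the 15 in each direction with the largest smaller-of-both-guides difference among genes averaging at least 5 FPKM over both guides' 6 libraries. Also named are the first members of each list and the 6 largest called genes in each direction for guides e12.4 and e20.1. Other genes named were chosen after their values were seen. Families of near-identical copies (histones, Stfa2, Akr1c12, Cd200r4, Ctla2a) may share reads and are uncertain. Alternatives were another pseudocount, other filters, upper-quartile scaling, a replicate block, Renilla and mock together as control, each library left out, and, added after the data were seen, centring by transcript length and GC content. Promoter sequences are from RefSeq (GRCm38.p6), and gene coordinates are from GENCODE (GRCm38).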

Additional observations from a re-analysis of the deposited data

Results flagged for a closer look

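For 3 lists and 9 genes, e12.3 replicate 3 and e21.1 replicate 3 lay outside their own mates on opposite sides, on the log2(FPKM + 1) scale; the difference between the guides was not tested. Mean levels of mitochondrially encoded genes differed by -0.26 in e12.3 and 0.30 in e21.1, with mt-Atp6 at -0.27 and 0.58, mt-Atp8 at -0.13 and 0.67, and mt-Co2 at -0.10 and 1.04. Ribosome biogenesis and MYC genes differed by 0.034 in e12.3 and -0.26 in e21.1, and interferon response genes by -0.11 and 0.16, with the nucleic acid sensor Zbp1 at -0.19 and 0.35. Cdkn2a, which encodes a CDK inhibitor, differed by -0.45 in e12.3 and 0.19 in e21.1. Txnip, an inhibitor of glucose uptake, differed by -0.17 and 0.71, and the cathepsin gene Ctss by -0.69 and 0.31. The lysosomal membrane gene Lamp1 differed by -0.072 and 0.27 and the adhesion gene Pecam1 by 0.067 and -0.037. Over all genes described, 770 (6.65%) lay on opposite sides in this way.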

How the results depend on the processing

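Replicates number 3 per group, the 2 libraries are 1 per guide, and depth is an estimate, so small differences of low genes are weakly supported. With a pseudocount of 0.1 FPKM, 517 genes were at least 2-fold higher and 360 lower, and the medians were 1.47 for histones and 1.01 for late neutrophil genes. With genes averaging at least 5 FPKM these counts were 217 and 135, and the late neutrophil median was 1.44. Upper-quartile scaling gave a primary granule median of -0.21. Centring by length and GC gave medians of 0.92 for ATF4, -0.75 for sterol, 1.11 for histones and -0.17 for primary granule genes, and reversed Cox4i1 to -0.056. The cause of these moves was not tested.

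With each library left out in turn, the ATF4 median ranged over 0.90 to 1.05, primary granule -0.19 to -0.13 and late neutrophil 0.48 to 0.90. Genes below all 16 others numbered 1309 to 2272, the highest without e12.3 replicate 3, when 1 library sets the count. Other replicate 3 libraries had 0 to 1 genes called higher (1 without e20.1 replicate 3) and 0 to 1 lower (1 without Renilla replicate 1). Guides e12.4 and e20.1 had 356 to 830 called lower. Guide e12.3 had 8 to 17 called lower: 8 without Renilla replicate 1 or 3, 11 without Renilla replicate 2, 13 without e12.3 replicate 2. Guide e21.1 had 140 to 301: 140 without Renilla replicate 1, 167 without Renilla replicate 2, 145 without e21.1 replicate 3.

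With Renilla and mock together, e12.4 and e20.1 had 1141 genes lower. With both replicate 3 libraries left out, e12.3 had 579 higher and 127 lower, and with no filter 37 lower. Replicate numbers are shared by the groups, and the deviations of same-numbered libraries correlated with Renilla at 0.33, 0.24 and 0.26 for e12.4, all above 0.1, but at -0.02, -0.25 and 0.37 for e20.1, -0.12, 0.11 and -0.18 for e12.3, and 0.08, 0.03 and -0.04 for e21.1. The numbers thus met the limit for pairing in e12.4 alone, and the fit of e12.4 with e20.1 kept no block. With a replicate block the lower counts were 964 for e12.4 and e20.1, 64 for e12.3 and 583 for e21.1. Of the other values under all alternatives, 220 main summary values and 2051 values of other lists and of single genes were kept. Counts were kept within 1.5-fold, and list medians and gene differences within the SD of the 2 guides' values. Genes fitted by limma were kept when their call did not change. A further 262 values of other lists and single genes moved more than this.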
